A study of Drosophila melanogaster with 4 samples.

Results

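Broad domains of the linker histone H1 were examined in chromatin from heads of adult fruit flies (Drosophila melanogaster). They are stretches of 8 kb or longer that were obtained by joining neighbouring H1-enriched regions, called clusters, of a list made for both replicates together. Clusters on the chromosome arms 2L, 2R, 3L, 3R and X were joined where the gap between them was under 1000 bp. This gave 9289 joined domains, of which 392 (4.22%) measured at least 8000 bp and are called broad, and 8897 were shorter. Length in the combined list thus chose the broad domains, and their number and length are given as a description. The same replicates went into the combined list, so the coverage of the domains by each replicate is not independent of that choice and was not tested either.

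The series maps H1 by chromatin immunoprecipitation followed by sequencing (ChIP-seq), in which DNA bound by a protein is pulled down with an antibody and sequenced. It holds 2 H1 ChIP samples and 2 input samples, which are chromatin that was not pulled down. All 4 came from head nuclei of mixed adults of Oregon-R, a laboratory strain of wild-type genotype, with no treatment named and the sexes not given. The labels tie each input to the ChIP sample of the same replicate number. Whether separate batches of flies were collected for the replicates is not stated, so their spread may be technical, and heads mix neurons, glia and other cells that these lists do not separate.

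H1 sits at the entry and exit points of the DNA on the nucleosome and on the adjoining linker DNA, and helps to fold nucleosome chains into compact fibres. In flies it is abundant along most of the chromosomes, is known for its part in keeping pericentric heterochromatin and transposons silent, and is depleted at active promoters. A cluster in such a map therefore marks a place where a widespread protein is called above input, not an isolated binding site. Gene content and base composition of the domains were not analysed here.

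Each list gave a start, an end and a score per cluster on FlyBase release 5, and coordinates below are of that release. On the 5 arms the combined list held 13243 clusters covering 24.2 Mb, replicate 1 held 2428 clusters covering 4.03 Mb and replicate 2 held 1925 clusters covering 3.25 Mb. The shortest cluster was 1001 bp in the combined list and 1301 bp in each replicate list. Sequencing depth is unknown, so a part of a domain outside a replicate's clusters is a part with no call, not a part without H1.

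The broad domains covered 4.68 Mb, or 3.93% of the 119.0 Mb of the 5 arms, and held 18.1% of all bases in joined domains. Their median length was 10430.5 bp, with quartiles at 8949 and 12861 bp and a longest domain of 46692 bp. Of the 392, 215 reached 10 kb, 67 reached 15 kb, 24 reached 20 kb and 5 exceeded 30 kb. Length fell off without a break at the threshold. The 3 shortest broad domains measured 8023 bp on 3L and 8018 and 8009 bp on 2L, and the 3 longest domains below the threshold measured 7987 and 7986 bp on 3R and 7980 bp on 2R.

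Most broad domains were chains of several clusters. Only 6 consisted of 1 cluster, 38 joined 2 clusters, 107 joined 3, 113 joined 4 and 77 joined 5. The longest chain had 11 clusters. In all, 1591 combined clusters, 12.0% of those on the arms, went into broad domains. The 1199 gaps between them had a median of 357 bp and made up 10.8% of broad bases. The joined gaps differed from the clusters they separated in the replicate lists. Replicate 1 covered 18.4% of the clusters' bases and 2.15% of the gaps' bases. Replicate 2 covered 21.2% of the clusters' bases and 2.02% of the gaps' bases. The deposited score has no name and is taken here as log2 enrichment over input, called deposited enrichment below. It hardly differed between broad and shorter domains. The median score of clusters in broad domains was 0.43, or 1.35-fold, and that of clusters in shorter domains was also 0.43, or 1.35-fold.

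Broad domains were frequent on the large autosomal arms and nearly missing from X. Arm 3R carried 128 of them (4.59 per Mb), 3L 99 (4.03 per Mb), 2L 89 (3.87 per Mb) and 2R 73 (3.45 per Mb), while X carried 3 (0.134 per Mb). These counts come from 1 combined list with no replicate error. The ratio of X to the large autosomal arms was 0.0332 for broad domains (95% exact binomial interval of the X share, as a ratio, 0.00682 to 0.0978, counting error only). The interval takes domains as independent, although they bunch along the arms as described below, so it may be too narrow. For shorter domains the ratio was 0.535, with 43.8 per Mb on X and 81.9 per Mb on the large autosomal arms. Of all joined domains, 0.304% were broad on X and 4.69% on the large autosomal arms. X clusters of the combined list were shorter, with a median of 1317 bp against 1540 bp on the large autosomal arms, while their median score was higher, at 0.56 against 0.43. The median length of all joined domains was 1386.5 bp on X and 1858 bp on the large autosomal arms.

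The 3 broad domains of X were unlike each other in the replicates. The longest, at 21673751 to 21685231 (11481 bp), was covered to 17.4% by 1 cluster of replicate 1 and to 64.5% by 4 clusters of replicate 2. The domain at 20573417 to 20581520 (8104 bp) was covered to 17.6% by replicate 1 and held no cluster of replicate 2. The domain at 4668641 to 4677591 (8951 bp) held none of either. The first and the second lay within 2 Mb of the centromere end of the arm and stood 1092 kb apart.

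**Figure D1:**
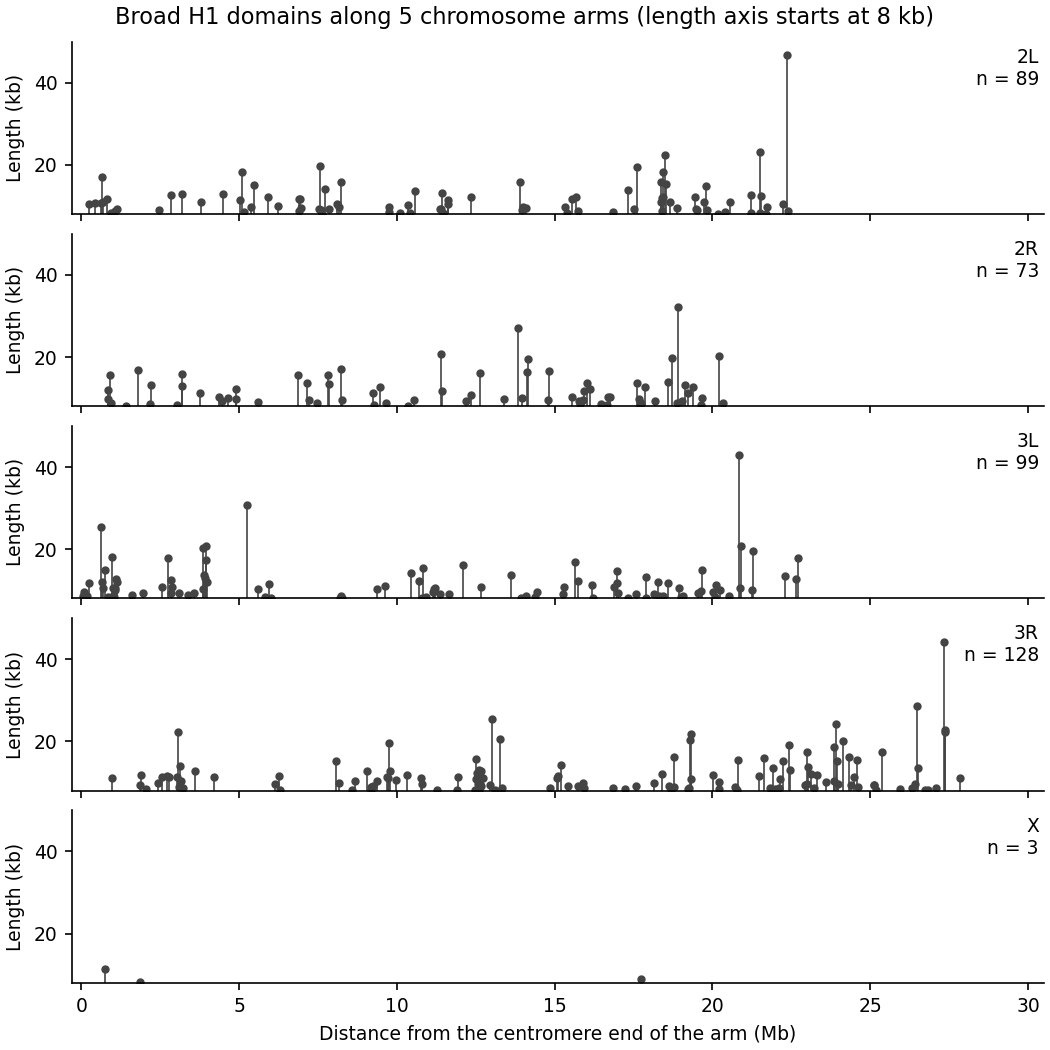
Each point is a broad domain, placed by the distance of its midpoint from the centromere end of its arm (horizontal axis, Mb) and by its length (vertical axis, kb, starting at 8 kb), with a panel for each arm. The large autosomal arms carry 73 to 128 domains that bunch in places, and X carries 3.

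Along the arms the broad domains bunched. The 380 that lay in the 95 full 1-Mb windows of the large autosomal arms gave a mean of 4.00 and a median of 4 per window, with a variance of 7.45. They ranged from none in 4 windows and 1 in 14 windows to 13 in the fullest. The 15 windows with 7 or more held 129 of them, or 33.9%. The fullest windows were 3L from 23 to 24 Mb with 13, 3R from 12 to 13 Mb with 12, 3R from 23 to 24 Mb with 11, and 2L from 4 to 5 Mb and 3R from 9 to 10 Mb with 10 each. The 4 empty windows were 3L from 0 to 1 and from 17 to 18 Mb, and 3R from 5 to 6 and from 7 to 8 Mb. Shorter domains were spread over the same windows with a median of 82 and a range of 37 to 123. Their number was only weakly related to that of broad domains, with a Spearman's rho of 0.19 and a Pearson's r of 0.16 across the 95 windows, which share the combined list and are not replicates. The empty window from 7 to 8 Mb of 3R held 85 shorter domains and that from 5 to 6 Mb held 37.

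Near the arm ends the count depended on the arm. Within 2 Mb of the centromere end 3L carried 19 broad domains, where its mean density over the whole arm would give 8.07, and 3R carried 3, where its mean density would give 9.17. The centromere ends of 2L and 2R carried 9 and 6. Within 2 Mb of the telomere end 3R carried 12, 2L carried 10, 2R carried 6, 3L carried 2 and X carried none.

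Neighbouring broad domains were often close. The median distance from a broad domain to the nearest other on its arm, edge to edge, was 37.5 kb, with quartiles at 9.01 and 106.0 kb. The mean length of arm per broad domain was 248 kb on the large autosomal arms. That is a mean of arm length, while the median above takes the smaller of the distances on either side. The values are thus not on the same footing, and no random placement was drawn to set beside them. A neighbour lay within 100 kb for 284 of 392 broad domains (72.4%), where a broad domain lay within 100 kb of 48.4% of all joined domains and of 47.4% of shorter ones. On the large autosomal arms alone the shares were 73.0% of broad and 52.7% of shorter domains. The difference was in place at short range too, with 27.2% of broad and 10.9% of shorter domains of these arms within 10 kb of another broad domain. No distance is under 1000 bp, since such neighbours were joined, and 33 broad domains had the next at under 2000 bp. The grouping therefore depends in part on where the joining stops. On X no broad domain had another within 100 kb.

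**Figure D2:**
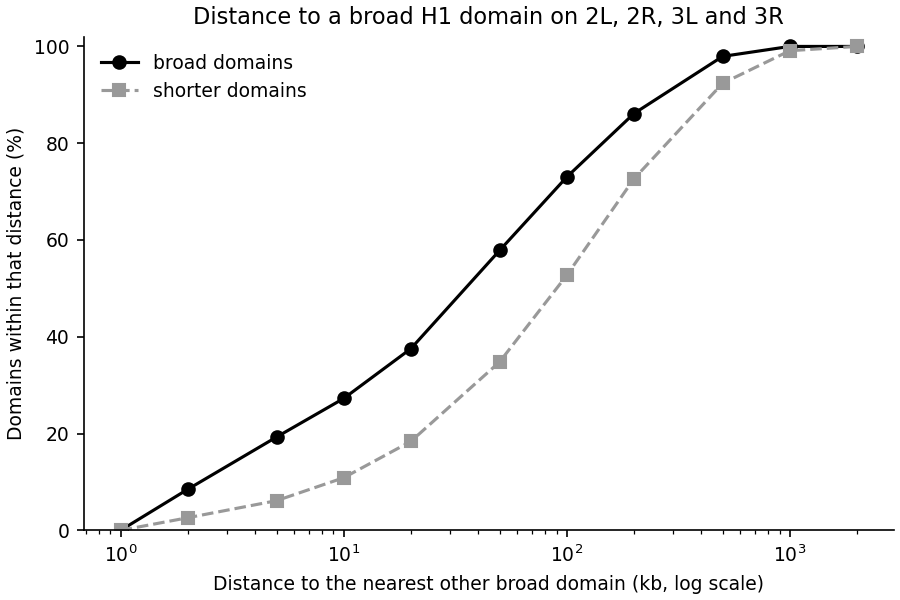
Cumulative share of broad (circles) and shorter (squares) joined domains of 2L, 2R, 3L and 3R (vertical axis, %) whose nearest other broad domain lies within a given distance (horizontal axis, kb, log scale). The curve of broad domains lies above that of shorter domains from 2 to 1000 kb, with 57.8% against 34.8% at 50 kb.

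Linking broad domains that were no more than 100 kb apart gave 201 groups. Of these, 108 held a lone domain and 93 held 2 or more, and 11 groups of 5 or more held 72 domains (18.4%). The fullest group lay on 3R at 12484308 to 12738168 and held 11 domains of 8.24 to 15.8 kb, which filled 47.6% of its 254 kb. Replicate 2 covered 39.4% of the bases of these 11 domains and replicate 1 covered 13.6%. Replicate 2 had clusters in 10 of them and replicate 1 in 7, and replicate 2 covered more in 9. Its share reached 68.1% in the domain at 12531052 to 12543328, in which replicate 1 had no cluster. The domain at 12593715 to 12606843, in the same group, had no cluster of either replicate, and at 13129 bp it was the longest such domain of all 392.

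The second group lay on 2L at 4488134 to 4659735, where 8 domains of 8.72 to 22.4 kb filled 67.3% of 172 kb. Here replicate 1 covered 30.8% of the domains' bases and replicate 2 covered 23.4%. The domains at its left end, from 4488134 to 4503379 and from 4505398 to 4527839, were covered to 55.3% and 51.4% by replicate 1 and to 20.2% and 20.0% by replicate 2. At its right end the domain from 4648867 to 4659735 was covered to 46.0% by replicate 2 and held no cluster of replicate 1. The third group lay on 3L at 23418822 to 23597794, near the centromere end, with 8 domains of 8.28 to 18.2 kb over 50.8% of 179 kb. Replicate 2 covered 26.5% of their bases with clusters in all 8, and replicate 1 covered 12.9% with clusters in 6. The groups thus differed in which replicate covered them more.

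The replicate lists were then laid over the domains. Replicate 1 covered 16.7% of broad bases and 13.3% of shorter bases, and replicate 2 covered 19.2% of broad bases and 10.3% of shorter bases. Both replicates therefore covered broad domains more densely, by 3.36 percentage points in replicate 1 and 8.85 points in replicate 2, a mean of 6.11 ± 3.88 points (SD, n = 2 replicates). The broad share was higher than the shorter share in 10 of 10 pairs of an arm and a replicate, and on the large autosomal arms the difference ran from 0.649 points, on 3L in replicate 1, to 10.0 points, on 2L in replicate 2. With 2 replicates of 1 group, and domains chosen on the same reads, no test of this difference was made.

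The replicates followed length in unlike ways. In replicate 2 the covered share rose with each step of length, at 1.83% of bases in domains under 1301 bp, 8.67% up to 2 kb, 10.8% up to 4 kb, 13.4% up to 6 kb, 15.8% up to 8 kb, 18.1% up to 10 kb, 18.7% up to 15 kb and 21.1% from 15 kb on. In replicate 1 it was 4.53% under 1301 bp and then nearly level, from 14.2% between 1301 bp and 2 kb to 15.7% between 6 and 8 kb, 15.5% between 8 and 10 kb and 17.4% from 15 kb on. Joined domains under 1301 bp are shorter than any replicate cluster and can be met only by clusters that reach beyond them or past their edge. Against shorter domains of 2 kb or more, a comparison chosen after seeing the data, the mean difference was 4.09 points.

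**Figure D3:**
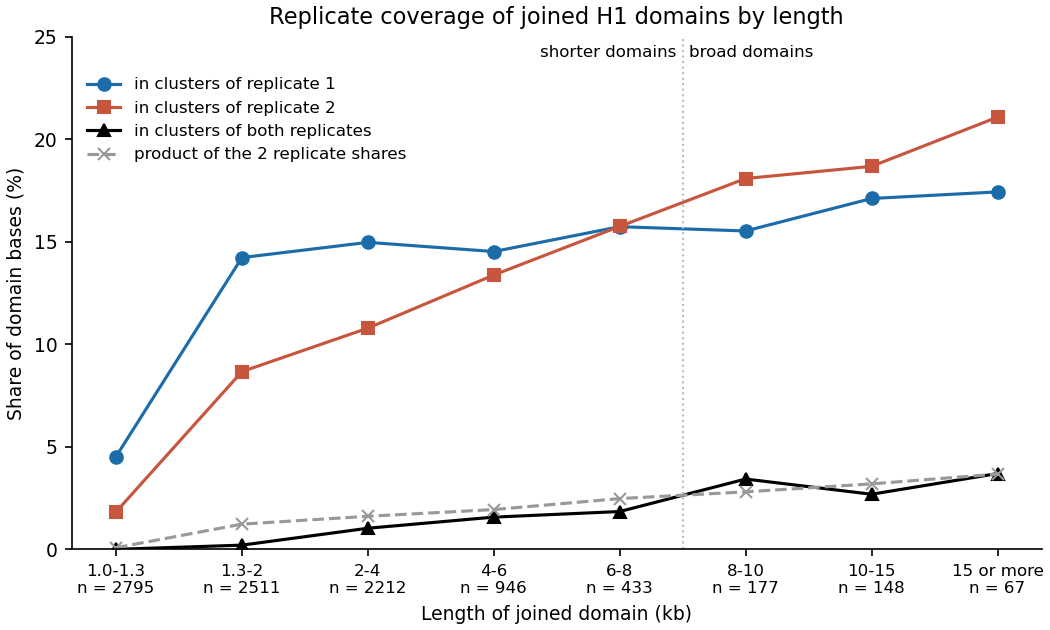
Share of the bases of joined domains (vertical axis, %) that lie in clusters of replicate 1 (circles), of replicate 2 (squares) and of both (triangles), by length of the domain (horizontal axis, kb, with the number of domains). Crosses give the product of the replicate shares, and the dotted line marks the 8 kb threshold. Replicate 2 rises to 21.1% in the longest class, replicate 1 is nearly level above 1.3 kb, and the share in both lies close to the product in the broad classes.

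Counted by domain, 271 of 392 broad domains (69.1%) overlapped a cluster of replicate 1 by at least 1 bp, against 1708 of 8897 shorter ones (19.2%) and 21.3% of all joined domains. For replicate 2 the count was 284 broad domains (72.4%) and 1287 shorter ones (14.5%), against 16.9% of all. Both replicates met 193 broad domains (49.2%, 95% Wilson interval 44.3 to 54.2, counting error only) and 294 shorter ones (3.30%), against 5.24% of all. A longer domain has more room to meet a cluster, and the rule chose on length, so nothing is read from these shares beyond the account of the members. The other broad domains divide into 78 (19.9%) met by replicate 1 without replicate 2, where 16.1% of all joined domains were, 91 (23.2%) met by replicate 2 without replicate 1, where 11.7% of all were, and 30 (7.65%) met by neither, where 67.0% of all were.

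The 30 without a replicate cluster were mostly near the threshold, with a median of 9283.5 bp and 24 of them under 10 kb. They lay on 3L (10), 3R (9), 2L (6), 2R (4) and X (1). The longest were on 3R at 12593715 to 12606843 (13129 bp, 7 clusters joined), on 2R at 17843174 to 17855978 (12805 bp, 6 clusters joined) and on 3R at 1888469 to 1900284 (11816 bp, 5 clusters joined). Their mean deposited enrichment was 1.34-fold, 1.35-fold and 1.33-fold. Over all 30 the median of this value was 1.34-fold, with a range of 1.297 to 1.430, against 1.36-fold for the other 362 broad domains, and 24 of the 30 lay below the median of all broad domains.

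Within a broad domain the replicates called small and mostly separate pieces. The median domain held 1 cluster of each replicate and was covered to 14.7% by replicate 1 and to 16.7% by replicate 2. Clusters of either replicate covered 32.6% of broad bases and 22.7% of shorter bases. Of the 392 broad domains, 19 were covered to 50% or more by replicate 1 and 15 by replicate 2. In 73 of them the bases in either list came to 50% or more. A cluster of a given length fills less of a longer domain, and the rule chose on length. No count of shorter domains is set beside these counts, so they describe the members and no more. The most clusters of a replicate in a domain were 6 in replicate 1 and 8 in replicate 2. The covered share differed little between parts of a domain. Over 5 equal pieces from left to right, replicate 1 covered 17.7%, 16.9%, 15.3%, 17.0% and 16.4% of the bases. Replicate 2 covered 20.6%, 19.5%, 18.2%, 20.4% and 17.2%. A domain begins and ends on a combined cluster by the rule, so its gaps, where replicate coverage was low, lie inside it. The pieces are thus not alike, and no preference for the centre or the edges is read from these shares.

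The replicates had few bases in common there. Bases in clusters of both replicates were 3.23% of broad bases and 0.956% of shorter bases, or 9.91% and 4.21% of the bases in either list. The product of the covered shares, given as plain arithmetic and not as a test, was 3.20% in broad domains and 1.37% in shorter domains. In broad domains the shared part was thus close to that product, and in shorter domains it was below. Both classes of domain come from a list made from both replicates. The product inside them therefore does not measure how well the replicates match over the arms. Of the 193 broad domains met by both replicates, 104 had a base in both lists and 89 had none. Among the 294 shorter domains met by both, 94 had none. A longer domain has more room for separate clusters, so nothing is read from these counts. Across all 392 domains the covered shares of the replicates were hardly related, with a Spearman's rho of -0.039 and a Pearson's r of 0.0047. Replicate 2 covered more in 208 domains, replicate 1 covered more in 154, and the 30 without a cluster were tied. Domains entered this comparison through a list made from both replicates.

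**Figure D4:**
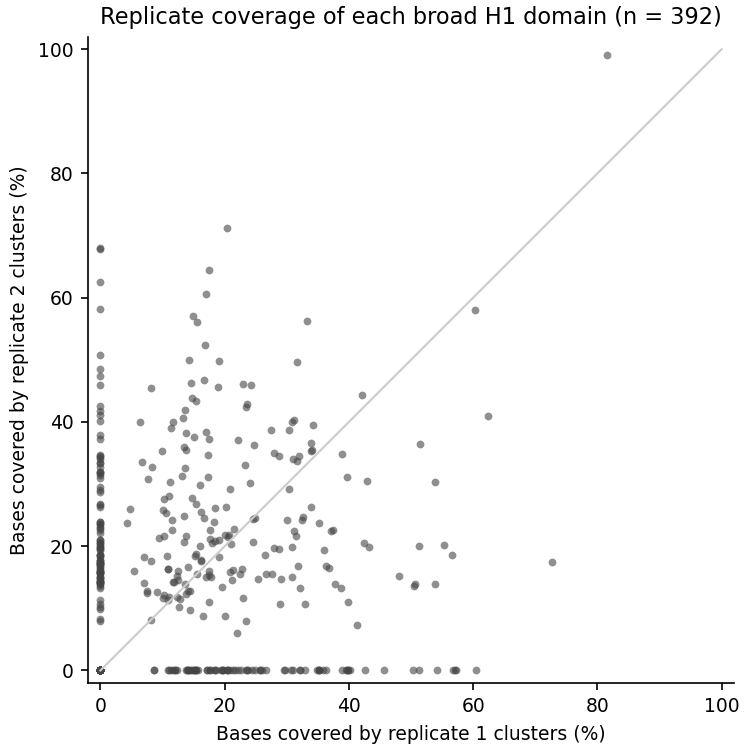
Each point is a broad domain, with its share of bases covered by clusters of replicate 1 (horizontal axis, %) and of replicate 2 (vertical axis, %). The line marks equal shares. Points spread along both axes, with 78 domains met by replicate 1 without replicate 2 and 91 the other way, and the point at the upper right is the 2R domain covered to 81.6% and 99.0%.

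A single domain was covered almost whole by both replicates. It lay near the centromere end of 2R at 936349 to 945037 (8689 bp) and was 1 cluster in each list. The cluster of replicate 1, at 936707 to 943793, covered 81.6% and that of replicate 2, at 936323 to 944953, covered 99.0%, and each was the longest of its list on the 5 arms. Its deposited enrichment was 1.41-fold in the combined list, 1.35-fold in replicate 1 and 1.48-fold in replicate 2. The most densely covered domain of 3L lay next to the centromere end at 24454449 to 24464065 (9617 bp), with 60.3% in replicate 1, 57.9% in replicate 2 and 56.3% in both. That of 3R, at 23840768 to 23851080 (10313 bp), had 62.3% in replicate 1, 41.0% in replicate 2 and 40.6% in both. That of 2L, at 11541580 to 11549965 (8386 bp), had 20.3% in replicate 1, all of it also in replicate 2, which covered 71.2%. On 2R, 3L and 3R the greater part of what each replicate covered was thus also covered by the other, while on 2L this held for replicate 1 alone. The most covered domain of X, described above, had 8.19% in both. These 5 were chosen for their coverage, so their values describe them and no more.

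The 10 longest broad domains did not stand out in this way. Arm 3R held 4 of them, 3L 3, 2R 2 and 2L 1. Both replicates had clusters in 9 of the 10, but shared a base in 6, and replicate 2 covered more than replicate 1 in 9. Of all 392 broad domains, 193 (49.2%) had clusters of both, 104 had a shared base and replicate 2 covered more in 208. Of all joined domains, 5.24% had clusters of both. The 10 were chosen on length, which gives more room to meet clusters, so nothing is read from these counts. The longest lay on 2L at 629171 to 675862 (46692 bp) and joined 10 clusters of 1541 to 12942 bp. Replicate 1 had 5 clusters there, covering 20.2%, and replicate 2 had 8, covering 26.3%, with 6.17% in both. The second, on 3R at 27300997 to 27345275 (44279 bp), joined only 4 clusters and lay in them to 97.1%. It had the highest deposited enrichment of the 10, at 1.42-fold, with 30.9% covered by replicate 1, 34.0% by replicate 2 and 10.5% by both. The third, on 3L at 3669513 to 3712366 (42854 bp), was covered to 17.6% by replicate 1 and to 21.1% by replicate 2, with 6.81% in both.

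The next domains were less evenly covered. On 2R at 18893942 to 18926111 (32170 bp), replicate 1 covered 4.22% and replicate 2 covered 23.8%. On 3L at 19293717 to 19324479 (30763 bp), replicate 1 covered 23.6% with 4 clusters and replicate 2 had none. This was the only domain of the 10 with no cluster of a replicate, and it also had the lowest deposited enrichment of the 10, at 1.32-fold. On 3L at 23898828 to 23924286 (25459 bp), near the centromere end, replicate 1 covered 6.39% and replicate 2 covered 40.0%. The domains on 2R at 13836070 to 13863098 (27029 bp), on 3R at 12998870 to 13024371 (25502 bp) and on 3R at 23915860 to 23940035 (24176 bp) had clusters of both replicates with no base in common. In the remaining domain, on 3R at 26460202 to 26488884 (28683 bp), replicate 1 covered 13.1% and replicate 2 covered 31.3%, with 2.51% in both.

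**Figure D5:**
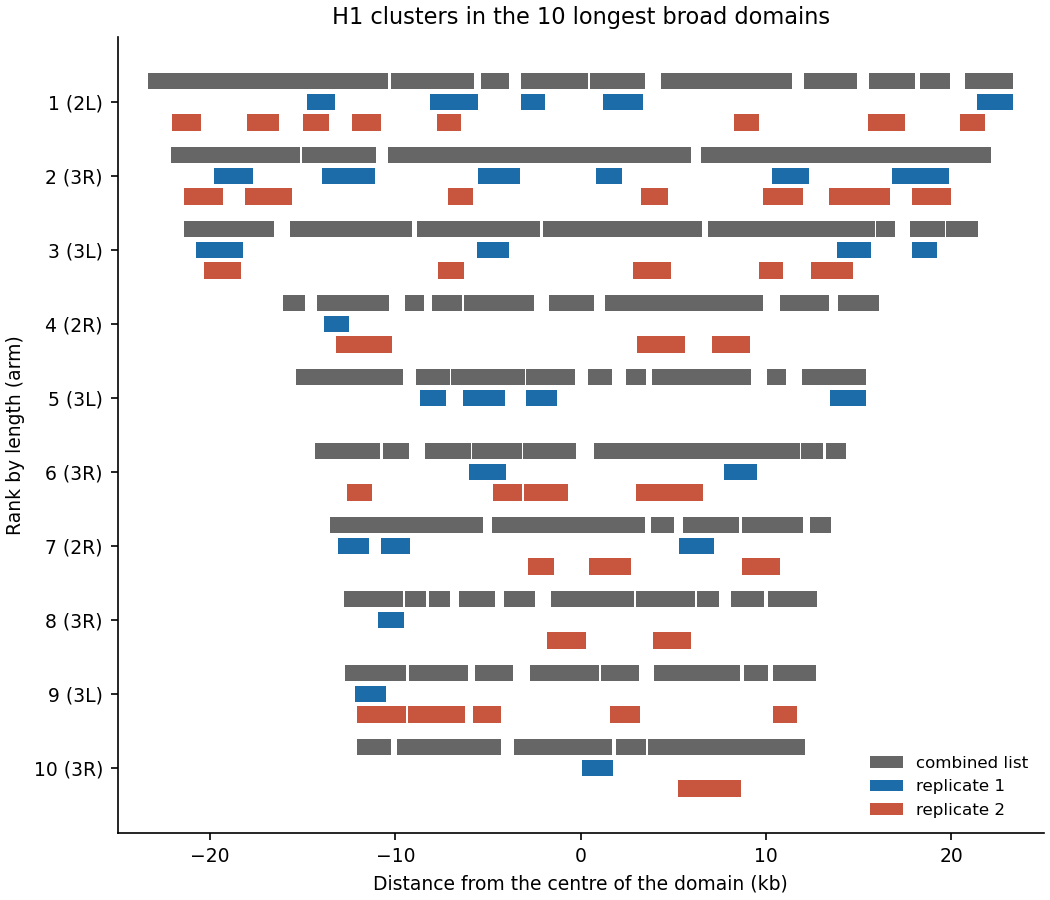
Clusters of the combined list (grey), of replicate 1 (blue) and of replicate 2 (red) in the 10 longest broad domains, drawn by distance from the centre of each domain (horizontal axis, kb) and ordered by length from the top (vertical axis, rank and arm). The combined clusters form nearly unbroken chains, while the replicate clusters are scattered pieces that coincide in part, and the domain of rank 5 has none of replicate 2.

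Seen from the replicate lists, broad domains took a larger part of replicate 2. They held 25.5% of its 1925 arm clusters and 27.6% of its covered bases, and 18.1% of the 2428 arm clusters and 19.3% of the covered bases of replicate 1. Broad domains themselves held 18.1% of the bases in joined domains. That share counts joined domains alone, while the replicate shares also count bases outside them, so they are not on the same footing. Shorter domains held 67.4% of the bases of replicate 2 and 70.0% of those of replicate 1. Outside all joined domains lay 5.00% of the bases of replicate 2 and 10.7% of those of replicate 1. Replicate clusters in broad domains were slightly longer than those in shorter domains, with medians of 1620 and 1512 bp in replicate 1 and 1621 and 1513 bp in replicate 2. Median log2 scores of replicate 1 clusters were 0.67 in broad and 0.65 in shorter domains, and those of replicate 2 clusters were 0.60 in both. A cluster of replicate 1 overlapped replicate 2 in 126 of 439 cases (28.7%) inside broad domains and in 209 of 1831 cases (11.4%) inside shorter ones. For replicate 2 this was 130 of 491 cases (26.5%) and 207 of 1383 cases (15.0%). Each list covered a larger share of broad than of shorter bases, so a cluster there had more of the other list to meet. Nothing about the match of the replicates is read from these shares.

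Near the centromere ends the covered shares of the replicates lay further apart than elsewhere, and in broad domains their shared part was larger. Within 2 Mb of them the 39 broad domains were covered to 15.9% by replicate 1 and to 27.7% by replicate 2, and the 790 shorter domains to 10.5% and 15.5%. Outside these zones the 353 broad domains were covered to 16.8% and 18.3% and the 8107 shorter ones to 13.6% and 9.81%. Bases in both lists were 6.63% of broad bases within the zones, where the product of the shares is 4.40%, and 2.88% outside them, where it is 3.06%. Of the bases in either list these were 17.9% within and 8.96% outside. The zones include the most covered domains of 2R and 3L named above, with 81.6% and 56.3% in both lists, and these were not left out. In shorter domains the shared part was not larger, at 0.937% within and 0.958% outside, or 3.73% and 4.27% of the bases in either list. The arms were unlike each other. On 3L the 19 broad domains of the zone were covered to 14.4% by replicate 1 and to 30.1% by replicate 2, with 8.42% in both. On 2R the 6 of the zone, among them the domain covered almost whole, had 31.7% in replicate 1, 29.3% in replicate 2 and 13.5% in both. On 2L the 9 of the zone had 8.29%, 28.2% and 0.156% in the same order. The 2 on X had 17.5%, 37.8% and 4.80%. On 3R the 3 broad domains of the zone went the other way, with 13.6% in replicate 1 and none in replicate 2. Over all arms the mean of the replicates in broad domains was 17.5% without the zones and 17.9% with them.

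A choice that uses only 1 replicate leaves the other free. Joined by the same rule, each replicate list alone gave 2 domains of 8 kb or more on the 5 arms, too few to describe, so stretches of at least 4000 bp were taken, a length chosen after seeing the data. Replicate 1 had 58 such stretches, of which replicate 2 covered 19.5% of the bases, against 7.91% of the bases of 2226 shorter stretches. Replicate 2 had 47, of which replicate 1 covered 14.6%, against 10.6% of 1773 shorter stretches. Of all bases of the 5 arms replicate 2 covered 2.73% and replicate 1 covered 3.39%, less than in long or short stretches of the other list. Without the zones of 2 Mb at the centromere ends the shares were 16.3% and 7.54% for stretches of replicate 1. For those of replicate 2 they were 11.2% and 11.0%, on 35 long stretches. Long stretches of replicate 1 were thus covered more densely than short ones by replicate 2 in both settings, while those of replicate 2 differed from short ones by 0.244 points once the zones were left out. Each share comes from 1 list and has no replicate error, and stretches of 1 list are not replicates.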

How the data were processed

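H1 ChIP-seq clusters of 2 replicates of adult fly heads were used as deposited. The submitters' processing notes name the aligner Bowtie 0.12.7, and per the file headers positions refer to FlyBase release 5. The sources used here give neither the caller and its threshold nor the way the authors combined the replicates. The deposited score has no name, and its values show a log2 scale, taken here as enrichment over input. Raised as a power of 2, from 99.5% to 99.97% of the scores of a list stood in whole-number ratios to a chosen score (divisors up to 20000, tolerance 1e-13), against at most 0.108% with base e or 10. Fold is 2 raised to the score.

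Combined clusters on 2L, 2R, 3L, 3R and X were joined at gaps under 1000 bp, and domains of 8000 bp or longer were kept. Overlap needed 1 bp, and coverage counts every base of a domain. Joining and overlap were tested on simulated intervals. Regions named are the 10 longest, the most covered per arm, all on X, those beside the threshold, the 3 fullest groups at 100 kb and the 3 longest without a replicate cluster. The domains, and the rules and measures used on them, were chosen with earlier results of these data known. No hypothesis test was made, because the rule used the same reads. Intervals and counts cover counting error only, with domains taken as independent although they bunch along the arms, and depth is unknown. Other gaps, lengths, score filters and overlaps were tried, and each replicate was left out. The gene table at hand is of release 6 and was not used. Python 3.11.15, NumPy 2.4.6, SciPy 1.17.1 and Matplotlib 3.10.9 were used.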

Additional observations from a re-analysis of the deposited data

Results flagged for a closer look

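The rule for broad domains covers 5 arms. Applied to sequence outside them, it also gave broad domains, which enter no comparison above and are listed here for that reason. There were 42 on 3RHet, 31 on 3LHet and 19 on 2RHet, the heterochromatic sequences of these arms, and 42 on U, the collection of unplaced sequence. This came to 16.7 per Mb on 3RHet, 12.1 per Mb on 3LHet, 5.78 per Mb on 2RHet and 4.18 per Mb on U. Replicate 2 covered 44.1%, 42.1%, 41.5% and 47.7% of their bases in the same order, and replicate 1 covered 15.4%, 8.81%, 8.64% and 16.7%. Shorter domains there were covered to 34.1%, 26.0%, 26.0% and 29.7% by replicate 2 and to 8.23%, 11.3%, 8.73% and 7.89% by replicate 1. On 3LHet replicate 1 thus covered broad domains less than shorter ones, unlike on the 5 arms, and on 2RHet its shares hardly differed. Over all heterochromatic sequences together replicate 1 covered 11.9% of broad and 8.97% of shorter bases. Each value comes from 1 list. YHet had 1, and chromosome 4, 2LHet and XHet had none. The inputs have no list of their own, so no level in control samples can be set beside these counts.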

How the results depend on the processing

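Of 56 alternative values for the 6 chief descriptions, 28 stayed within the replicate spread, the counting interval or 1.5 times the count, and 28 moved outside it. No test was involved. The mean broad-minus-shorter covered share stayed above 0 in all 12 alternatives run for it, among them the values of each replicate already given above. The number of broad domains follows the rule itself. It was 28 with no joining, 184 at gaps under 500 bp, 898 at gaps under 2000 bp, 825 at a minimum of 6000 bp, 215 at 10000 bp and 120 from the highest-scoring 50% of combined clusters (392 as reported). The covered share, 17.9% as reported, was 31.4% with no joining, 22.1% at 500 bp, 13.4% at 2000 bp, 24.4% from the highest-scoring combined clusters and 10.7% with the highest-scoring 50% of replicate clusters. The broad-minus-shorter share, 6.11 points, was 17.9 points with no joining, 9.47 points at 500 bp and 3.00 points at 2000 bp. The value at 2000 bp was the smallest of the 12. Those at 500 and 2000 bp stayed within the replicate spread, which was wide (SD 3.88 points, n = 2 replicates). The share met by both replicates, 49.2%, was 78.6% with no joining, 57.6% at 500 bp, 39.9% at 2000 bp, 35.8% at 6000 bp, 61.4% at 10000 bp, 65.8% from the highest-scoring combined clusters and 21.4% with the highest-scoring replicate clusters. The X ratio, 0.0332, was 0 with no joining and at most 0.0931 in the others. The share with another broad domain within 100 kb, 72.4%, was 57.1% with no joining, 59.8% at 500 bp, 89.8% at 2000 bp, 86.4% at 6000 bp, 51.2% at 10000 bp and 55.8% from the highest-scoring combined clusters. It was 57.4% within 50 kb and 85.5% within 200 kb. More or fewer domains by construction change this share, and other causes were not tested. Leaving out 1 replicate gave covered shares of 16.7% to 19.2% and differences of 3.36 points without replicate 2 to 8.85 points without replicate 1. These restate the values of the single replicates. With 2 replicates each value lies within their spread, so they were bound to count as staying within it. Leaving out X, or, as chosen after seeing the data, 2 Mb at each centromere end, moved none of the values run for it outside those limits. No paired analysis was possible because no result comes from a test between groups and the inputs have no list.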
